A study of Mus musculus with 18 samples.

Results

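Glycolysis and hypoxia response genes are 33 listed mouse genes that encode the enzymes and transporters of sugar breakdown, the regulators of the hypoxia-inducible factor, and genes that this factor is known to switch on when oxygen is short. Members were found by their symbol in the platform annotation, with the probe set of highest mean over all arrays standing for a gene. Of the 33 genes, 31 were measured, of 19938 named genes in all, and all 31 passed the filter on dim genes. Gpi1 and Eno1 had no probe set under their own symbol in the annotation used and were skipped. The members are listed by symbol and not by a measured value, although the list was chosen with earlier results of these data known. The probe set of a gene was picked by its measured level.

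Hypoxia-inducible factors are pairs of an unstable alpha subunit, such as the product of Hif1a, and a stable partner. With oxygen present, prolyl hydroxylases of the Egln family mark the alpha subunit for degradation, so that its activity is set mainly at the protein level, which arrays of RNA do not measure. In low oxygen the pair binds short DNA motifs near genes for glucose uptake, glycolysis, lactate export, mitophagy, collagen hydroxylation and blood vessel growth. The lining of the intestine lies along a steep natural oxygen gradient, and tumours are known for high glucose uptake.

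Expression was measured on 18 Affymetrix arrays in 6 groups of 3 samples, from a series that asked whether Stat3, a transcription factor activated by cytokines, is needed for intestinal tumours to progress in APCmin mice. The groups were male tumours with Stat3 deleted (replicates 10 to 12) and their controls (7 to 9), female tumours with Stat3 deleted (16 to 18) and their controls (13 to 15), and intestinal epithelial cells with Stat3 deleted (4 to 6) and their controls (1 to 3). Stat3-deleted mice carried floxed Stat3 alleles and Cre recombinase under the Villin promoter, which is active in the intestinal epithelium, so stroma and immune cells of these mice kept the gene. The samples are labelled Stat3-/-. Controls carried the floxed alleles without a stated Cre and are labelled Stat3fl/fl. Tumour-bearing mice were APCmin/+ in both genotypes, per the series text, and thus all tumours share a mutated Apc allele. The labels give no Apc genotype, sex or age for the epithelial cells, and no age for the tumours. A note on every sample speaks of colorectal tumours induced by azoxymethane and dextran sulfate, whereas the series text describes tumours that arise in APCmin mice mainly in the small intestine, so the gut segment is uncertain. The labels do not state that the 3 samples of a group are separate animals. The p-values therefore rest on the scatter among samples, part of which may be technical.

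The deleted gene itself separated the genotypes. Stat3 measured 7.93, 7.95 and 7.73 on the log2 scale in Stat3-deleted epithelial cells, against 9.83, 9.74 and 9.91 in control epithelial cells, a fall of 3.88-fold (adjusted p 1.23e-05 in limma with Benjamini-Hochberg adjustment over all genes, as for every adjusted p here). In tumours its lowest, median and highest values were 7.74, 8.17 and 8.46 with Stat3 deleted, against 10.03, 10.10 and 10.35 in controls. The 2 tissues differed widely over the whole array, with 68.5% of the variance on the first principal component. The correlation of each array with the others of its group averaged between 0.954, for control male tumour replicate 8, and 0.988. Control tumours 9 and 15 stood apart by genes that mark a gut segment. Hoxb13, a gene of the hindgut, measured 8.80 and 8.19 in them, against 4.25 to 4.98 in the other control tumours and 4.41 to 5.08 in the Stat3-deleted tumours. Gata4, a gene of the upper small intestine, measured 6.92 and 6.84 in tumours 9 and 15 and at least 8.86 in every other tumour. Slc10a2, the bile acid carrier of the ileum, measured 3.91, 4.59 and 4.62 (lowest, median, highest) in Stat3-deleted tumours, against 5.28, 6.34 and 7.72 in control tumours, a fall of 2.03 ± 0.24 with the sexes averaged (adjusted p 0.000315). The gut segment of the tumours and their Stat3 genotype can therefore not be told apart fully, and main counts are also given without tumours 9 and 15.

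Cell markers differed along with the tissues and bear on every comparison of tumours with epithelial cells. Averaged over 9 absorptive enterocyte genes, the log2 level lay between 10.78 and 12.04 in Stat3-deleted tumours, against 12.60 to 12.84 in Stat3-deleted epithelial cells. It lay between 8.75 and 11.61 in control tumours, against 12.86 to 13.03 in control epithelial cells. The 8 fibroblast genes averaged 9.31 to 11.03 in Stat3-deleted tumours, against 6.26 to 6.39 in Stat3-deleted epithelial cells, and 9.45 to 10.11 in control tumours, against 6.23 to 6.78 in control epithelial cells. All 8 fibroblast, all 8 endothelial, all 6 smooth muscle and all 8 macrophage genes were higher in control tumours than in control epithelial cells, and all 9 enterocyte genes were lower. In Stat3-deleted tumours all 8 fibroblast, all 8 endothelial, all 6 smooth muscle and 7 of the 8 macrophage genes were higher than in Stat3-deleted epithelial cells, while 2 of the 9 enterocyte genes, Lct and Slc5a1, were lower and 7 did not pass. All 9 enterocyte differences were nevertheless below 0 there, with a median of -1.39, against -2.39 in control mice. All 5 proliferation genes were higher in tumours of both genotypes. The 9 genes of handling stress averaged 7.73 to 8.23 in Stat3-deleted tumours, against 8.45 to 9.03 in Stat3-deleted epithelial cells, with 6 lower. They averaged 7.74 to 8.04 in control tumours, against 8.48 to 8.78 in control epithelial cells, with 4 lower. General epithelial genes such as Epcam and Krt8 were abundant in both tissues, with 8 genes averaging 11.32 to 12.05 in tumours and 11.62 to 11.91 in epithelial cells. The 8 T and NK cell genes averaged 7.59 to 9.17 in Stat3-deleted epithelial cells, against 5.91 to 6.86 in Stat3-deleted tumours, with 7 lower. In control mice they averaged 6.86 to 7.51 in epithelial cells, against 5.56 to 6.65 in tumours, with 4 lower. The part of these cell mixtures in the members' differences was not tested, and in bulk samples fewer cells of a type and less RNA per cell cannot be told apart.

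The 250 bases before the transcription start of 6 members are shown because these members carry some of the largest differences between tumours and epithelial cells or, for Bnip3, the call for Stat3 deletion. The sequences are from RefSeq on mouse build GRCm38.p6 and run 5′ to 3′ on the strand of the gene. Capitals mark ACGTG or GCGTG, the core letters of the motif that hypoxia-inducible factors bind, read on either strand, so that CACGT and CACGC are the same motifs on the opposite strand. CACGTG holds ACGTG on both strands and counts as 2 matches. The windows are, in order, Bnip3 at chr7:138909507-138909756 on the minus strand, Slc2a1 at chr4:119108495-119108744 on the plus strand, Hk2 at chr6:82774455-82774704 on the minus strand, Ddit4 at chr10:59951771-59952020 on the minus strand, P4ha1 at chr10:59323046-59323295 on the plus strand and Pfkfb4 at chr9:108991652-108991901 on the plus strand.
Bnip3: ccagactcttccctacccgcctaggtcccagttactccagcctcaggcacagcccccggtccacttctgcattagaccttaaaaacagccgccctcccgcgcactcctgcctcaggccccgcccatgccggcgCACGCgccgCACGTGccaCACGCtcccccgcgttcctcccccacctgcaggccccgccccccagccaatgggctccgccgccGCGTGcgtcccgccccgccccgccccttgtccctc
Slc2a1: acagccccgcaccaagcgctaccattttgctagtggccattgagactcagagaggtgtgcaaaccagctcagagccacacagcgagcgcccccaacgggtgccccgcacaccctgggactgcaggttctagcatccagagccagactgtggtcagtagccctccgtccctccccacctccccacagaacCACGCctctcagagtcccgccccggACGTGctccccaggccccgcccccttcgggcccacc
Hk2: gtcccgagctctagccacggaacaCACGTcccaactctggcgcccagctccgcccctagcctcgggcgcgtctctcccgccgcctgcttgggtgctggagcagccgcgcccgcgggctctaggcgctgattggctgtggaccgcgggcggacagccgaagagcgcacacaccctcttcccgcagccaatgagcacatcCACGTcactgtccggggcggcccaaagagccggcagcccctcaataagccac
Ddit4: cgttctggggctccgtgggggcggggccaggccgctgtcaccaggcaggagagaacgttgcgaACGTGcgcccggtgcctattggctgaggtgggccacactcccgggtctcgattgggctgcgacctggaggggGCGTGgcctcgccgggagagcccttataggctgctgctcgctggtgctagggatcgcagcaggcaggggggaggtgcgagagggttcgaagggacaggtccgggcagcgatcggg
P4ha1: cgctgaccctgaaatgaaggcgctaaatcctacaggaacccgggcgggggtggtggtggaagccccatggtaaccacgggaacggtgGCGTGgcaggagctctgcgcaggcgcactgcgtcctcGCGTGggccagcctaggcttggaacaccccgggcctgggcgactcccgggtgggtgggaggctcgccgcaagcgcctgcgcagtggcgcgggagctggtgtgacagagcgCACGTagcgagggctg
Pfkfb4: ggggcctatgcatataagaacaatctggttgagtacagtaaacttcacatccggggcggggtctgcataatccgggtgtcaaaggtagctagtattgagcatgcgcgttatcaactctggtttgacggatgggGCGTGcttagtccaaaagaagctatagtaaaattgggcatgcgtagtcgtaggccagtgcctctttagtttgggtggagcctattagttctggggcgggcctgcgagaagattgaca

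The window of Bnip3 held 5 matches, that of P4ha1 held 3, those of Slc2a1, Hk2 and Ddit4 held 2 each, and that of Pfkfb4 held 1. Over all members, 28 had at least 1 such window in the RefSeq promoter table, and 26 of them (92.9%) held ACGTG or GCGTG in at least 1 window. Among all 17492 protein-coding genes with a window the share was 47.1%. The list holds genes chosen as known targets of hypoxia-inducible factors, so the higher share is no independent result. Base composition was not matched. The 2 motifs share the letters CGTG, and a gene with several windows had more chances to hold a match. The motif TTCNNNGAA, the palindrome that STAT proteins bind, read on both strands, stood in the window of 1 of the 28 members, Kdm3a (3.57%), against 7.65% of all protein-coding genes. A match of letters does not show binding, and these windows do not hold distant enhancers. Bnip3l, Bhlhe40 and Ndrg1 were not matched.

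In the map of members by array, the tumour arrays and the epithelial cell arrays differed in both directions. Slc2a1, Hk2, P4ha1 and Ddit4 were higher in each of the 12 tumours than in any of the 6 epithelial cell samples, and Pfkfb4 and Mxi1 were lower.

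**Figure D1:**
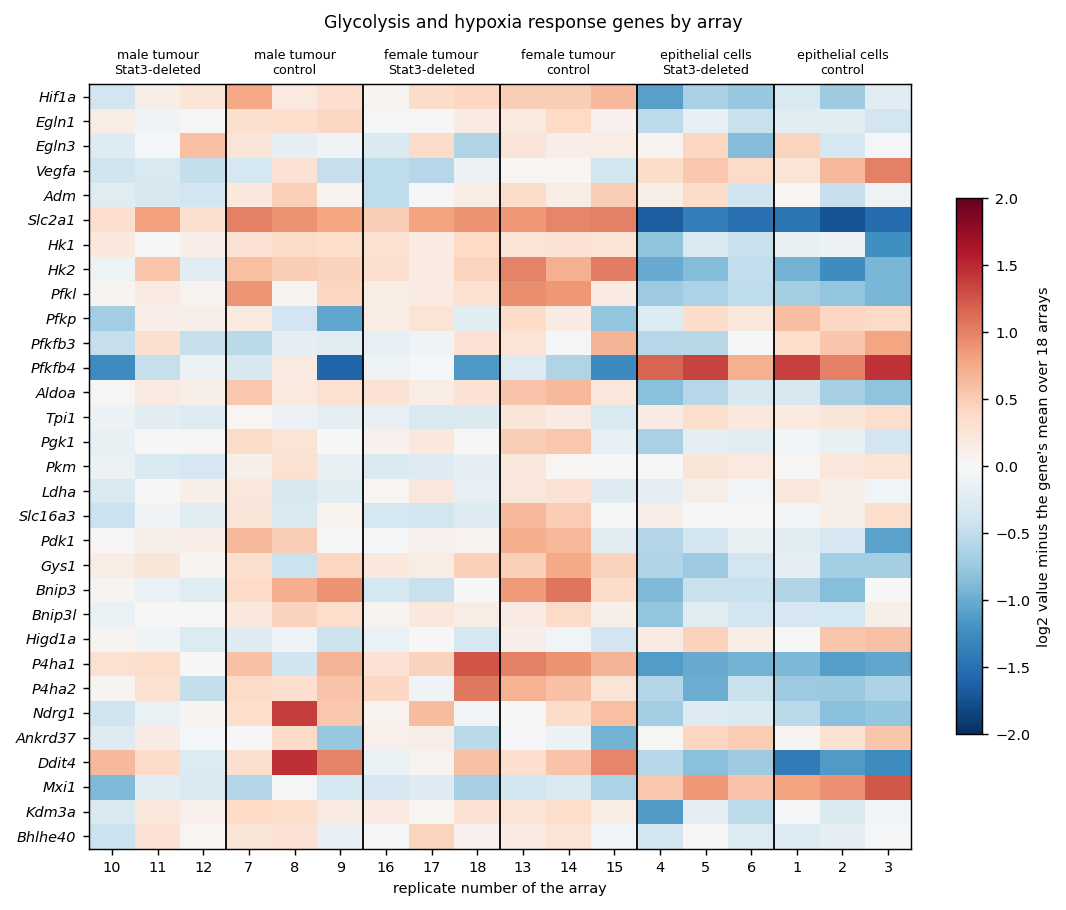
Log2 value of each of the 31 measured members minus the gene's own mean over 18 arrays, by array, in the 6 groups of 3; the colour scale ends at -2 and 2. Slc2a1, Hk2, P4ha1 and Ddit4 are blue and Pfkfb4 and Mxi1 red in the epithelial cells, and Bnip3 is lower in the Stat3-deleted than in the control tumours.

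Tumours were compared with epithelial cells within each genotype to ask which members differ between tumour and epithelium. The tumours stand for the mean of the male and the female group. Among the members that rose in both genotypes were Slc2a1 and Hk2 of glucose uptake and its first step, the proline hydroxylases of collagen and the stress-response gene Ddit4, while no rise passed for Pkm and Ldha at the end of glycolysis or for the lactate exporter Slc16a3. In Stat3-deleted mice 13 of 31 members were higher in tumours (41.9%) and 6 were lower, at an adjusted p below 0.05 in limma, and 12 did not pass. Among the 6 lower members, Pkm and Higd1a did not pass on their other probe set (adjusted p 0.15 and 0.581 in limma). In control mice 18 of 31 members (58.1%) were higher, 6 were lower and 7 did not pass. The tissues differed in most genes: 66.5% of the 17316 genes tested passed in Stat3-deleted mice, 30.3% higher and 36.2% lower, and 65.7% passed in control mice, 30.4% higher and 35.3% lower. The members' median difference was 0.41 on the log2 scale in Stat3-deleted mice and 0.47 in control mice, beside medians over all genes of -0.07 and -0.08. All 13 members that were higher in Stat3-deleted mice were among the 18 higher in control mice (72.2% of the 18), and 4 of the 6 lower members of each genotype were shared (66.7% of each).

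The median in Stat3-deleted mice was 0.26 without Stat3-deleted epithelial cell replicate 4, and the count of lower members in control mice was 3 without control epithelial cell replicate 3. With only the arrays compared, 23 members passed in Stat3-deleted mice, with Bnip3, Pdk1, Pgk1 and Slc16a3 added. In control mice 22 passed under that setting, with Pfkp and Pgk1 lost (adjusted p 0.0629 and 0.0649 in limma). After a second quantile normalization of the deposited values the Stat3-deleted comparison held 12 higher and 9 lower members, with a median of 0.10, beside a median of -0.11 over all genes. There 3 members of control mice lost their call: Adm (0.12, adjusted p 0.604), Kdm3a (0.23, 0.179) and Pfkp (-0.56, 0.0759). The same step gave Gys1 0.47 and 0.49, and Higd1a -0.72 and -0.87, in Stat3-deleted and control mice, Pfkl 0.50 and Kdm3a 0.42 in Stat3-deleted mice, and Egln1 0.34, Pdk1 0.58 and Pgk1 0.68 in control mice. Without control tumours 9 and 15 the control comparison had 23 members past the threshold. In control mice the weakest calls were lost when single arrays were left out. This held for Adm without epithelial cell replicate 2 or 3 or tumour 8 or 15, for Pfkfb3 without epithelial cell replicate 2 or 3 or tumour 7 or 14, for Bnip3l without epithelial cell replicate 1 or 2, and for Higd1a without epithelial cell replicate 3. It also held for Pfkp without any of the epithelial cell replicates or tumour 9 or 15, for Pgk1 without epithelial cell replicate 2 or 3 or tumour 7, 13 or 14, and for Kdm3a without any array but tumours 9 and 15. In Stat3-deleted mice Pkm was lost without epithelial cell replicate 5, and Higd1a without any array but tumours 10 and 17.

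**Figure D2:**
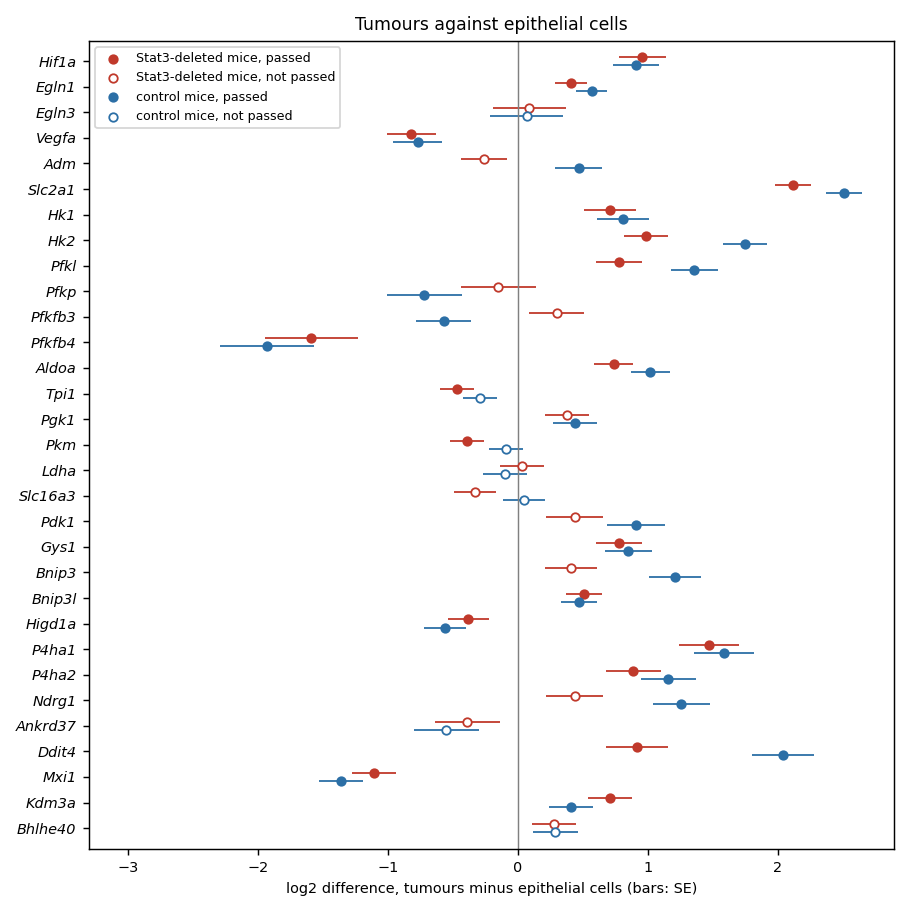
Log2 difference of tumours minus epithelial cells for the 31 members with its standard error, in Stat3-deleted mice (red) and control mice (blue), with filled points for members at an adjusted p below 0.05. Differences run from Pfkfb4 at -1.59 and -1.93 to Slc2a1 at 2.12 and 2.51 in Stat3-deleted and control mice.

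Slc2a1 encodes GLUT1, the glucose transporter of most dividing cells, and had the largest rise of any member in both genotypes. In Stat3-deleted mice its lowest, median and highest values were 9.92, 10.25 and 10.50 in tumours, against 7.94, 8.22 and 8.11 in the 3 epithelial cell samples. In control mice they were 10.39, 10.53 and 10.61 in tumours, against 8.13, 7.87 and 8.05 in epithelial cells. Every tumour lay well above every epithelial cell sample. The rise was 4.35-fold in Stat3-deleted mice (log2 2.12 ± 0.14 SE, adjusted p 2.83e-08 in limma) and 5.69-fold in control mice (2.51 ± 0.14, 4.4e-09). In what follows ± gives the SE of a log2 difference, and a number in brackets after it is the adjusted p.

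Hexokinases trap glucose inside the cell by phosphorylation, and Hk2 is the form known as a target of hypoxia-inducible factors. Hk2 measured 9.10, 9.56 and 9.86 (lowest, median, highest) in Stat3-deleted tumours, against 8.30, 8.45 and 8.82 in Stat3-deleted epithelial cells. In control mice it measured 9.77, 9.98 and 10.33 in tumours, against 8.37, 8.07 and 8.39 in epithelial cells. The groups did not overlap in either genotype, with a rise of 1.98-fold in Stat3-deleted mice (0.99 ± 0.17, adjusted p 0.000175) and 3.36-fold in control mice (1.75 ± 0.17, 9.07e-07). Hk1, the widespread form, rose by 0.71 ± 0.20 with Stat3 deleted (0.00517) and by 0.81 ± 0.20 in controls (0.00251), or 0.45 without control epithelial cell replicate 3. The probe set that stands for Hk1 carries no RefSeq mRNA accession, and the dimmer probe set that does carry one gave 1.23 and 1.64 for the same comparisons.

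Among the enzymes below hexokinase, some rose and others did not. Phosphofructokinase commits sugar to glycolysis: its liver-type subunit Pfkl rose by 0.78 ± 0.18 in Stat3-deleted mice (adjusted p 0.00143) and by 1.36 ± 0.18 in control mice (1.45e-05), and its platelet-type subunit Pfkp differed by -0.15 ± 0.29 (0.653) and -0.72 ± 0.29 (0.0357). In control tumours Pfkp measured 9.65 in replicate 9 and 9.90 in replicate 15, against 11.31, 11.10 and 11.08 in control epithelial cells, and without these tumours its difference was -0.39 and did not pass (adjusted p 0.152). Aldoa, the aldolase of muscle and tumours, rose by 0.74 ± 0.15 (0.000619) and by 1.02 ± 0.15 (4.65e-05) in Stat3-deleted and control mice. Pgk1, phosphoglycerate kinase, differed by 0.38 ± 0.17 with Stat3 deleted (0.055) and rose by 0.44 ± 0.17 in controls (0.03). Tpi1, triosephosphate isomerase, fell by 0.47 in Stat3-deleted mice (0.00551) and differed by -0.29 in control mice (0.067).

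The bifunctional enzymes Pfkfb3 and Pfkfb4 set the level of fructose 2,6-bisphosphate, the strongest activator of phosphofructokinase. Pfkfb4 fell most of all members: it measured 7.16, 8.13 and 8.39 (lowest, median, highest) in Stat3-deleted tumours, against 9.59, 9.77 and 9.13 in Stat3-deleted epithelial cells. In control mice it measured 6.82, 7.96 and 8.60 in tumours, against 9.79, 9.44 and 9.87 in epithelial cells. Every tumour was below every epithelial cell sample, by 3.01-fold with Stat3 deleted (-1.59 ± 0.36, adjusted p 0.00131) and 3.80-fold in controls (-1.93 ± 0.36, 0.000324). The lowest values, 6.82, 7.15, 7.16 and 7.28, were in tumours 9, 15, 10 and 18, and the enterocyte average was lowest in tumours 15, 9, 18 and 14. The part of enterocytes in the fall of Pfkfb4 was not tested. Pfkfb3 differed by 0.30 ± 0.21 in Stat3-deleted mice (0.201) and by -0.57 ± 0.21 in control mice (0.0245).

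For pyruvate kinase, lactate dehydrogenase and the lactate exporter no rise passed. Pkm, the pyruvate kinase of most tissues other than liver, measured 10.86, 10.92 and 11.08 in Stat3-deleted tumours, against 11.20, 11.44 and 11.39 in Stat3-deleted epithelial cells, a fall of 0.39 ± 0.13 (adjusted p 0.0136). In control mice its difference was -0.09 ± 0.13 (0.541). The other Pkm probe set, which carries RefSeq mRNA accessions, gave -0.20 (0.15) and 0.14 (0.325), so the fall did not pass there. Ldha, which turns pyruvate into lactate, differed by 0.03 ± 0.17 (0.896) and -0.10 ± 0.17 (0.594), and its tumour values, 12.04 to 12.66, spanned those of the epithelial cells. Slc16a3, the lactate exporter MCT4, differed by -0.33 ± 0.16 (0.0763) and 0.05 ± 0.16 (0.786). Pdk1, the kinase that holds pyruvate back from mitochondria, differed by 0.44 ± 0.22 with Stat3 deleted (0.0908) and rose by 0.91 ± 0.22 in controls (0.00227). Gys1, the glycogen synthase of muscle and other tissues, rose by 0.78 ± 0.18 (0.00139) and by 0.85 ± 0.18 (0.000801).

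**Figure D3:**
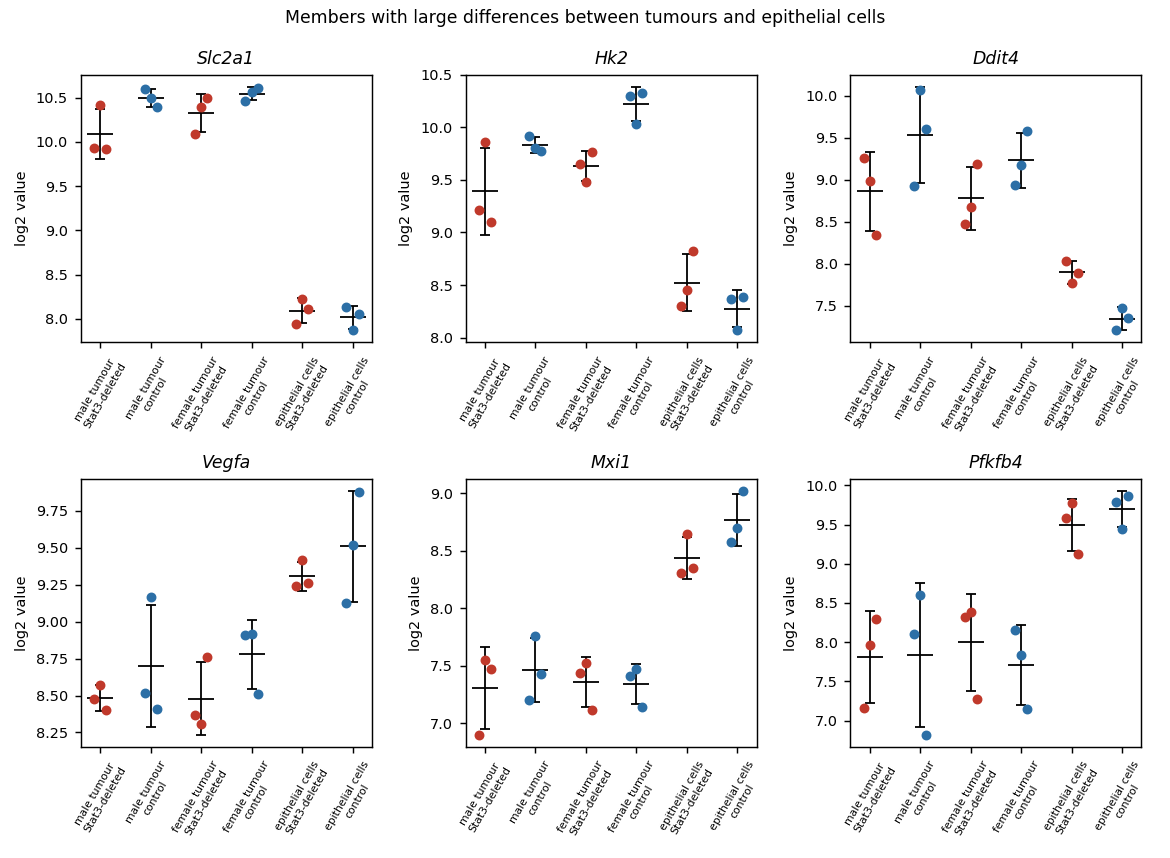
Log2 value of 6 members by group, with points for the 3 arrays, a horizontal line for their mean and bars for 1 SD, in Stat3-deleted (red) and control (blue) samples. Slc2a1, Hk2 and Ddit4 lie higher in tumours, Mxi1 and Pfkfb4 lie lower, and 1 control male tumour, at 9.17, exceeds the lowest control epithelial cell value for Vegfa.

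Among the regulators of oxygen sensing, Hif1a RNA rose by 0.96 ± 0.18 in Stat3-deleted mice (adjusted p 0.000301) and by 0.91 ± 0.18 in control mice (0.000444). It measured 9.76, 10.32 and 10.55 (lowest, median, highest) in Stat3-deleted tumours, against 9.05, 9.49 and 9.39 in Stat3-deleted epithelial cells, and the groups did not overlap. Egln1, the main prolyl hydroxylase of Hif1a, rose by 0.41 ± 0.12 (0.00627) and 0.57 ± 0.12 (0.000698), and its hypoxia-induced relative Egln3 differed by 0.09 ± 0.28 (0.781) and 0.07 ± 0.28 (0.839). The rise of Egln1 with Stat3 deleted was 0.10 after quantile normalization and did not pass there (adjusted p 0.502). Kdm3a, a histone demethylase induced by hypoxia, rose by 0.71 ± 0.17 with Stat3 deleted (0.0021), or 0.45 without Stat3-deleted epithelial cell replicate 4, and by 0.41 ± 0.17 in controls (0.0452). Over all genes, 30.3% were higher and 36.2% lower in Stat3-deleted mice, and 30.4% and 35.3% in control mice. Of the other 13 genes of oxygen sensing, 6 were higher and 3 lower in Stat3-deleted tumours, and 5 higher and 1 lower in control tumours. They include the chaperone Hsp90aa1 (1.60 in Stat3-deleted and 1.15 in control mice), the scaffold Cul2 of the ligase that degrades the factor (1.31 and 0.88) and the hydroxylase Egln2 (-0.66 and -0.40).

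The secreted targets went different ways. Vegfa, the growth factor of blood vessels, measured 8.31, 8.44 and 8.76 in Stat3-deleted tumours, against 9.24, 9.42 and 9.26 in Stat3-deleted epithelial cells. In control mice it measured 8.41, 8.72 and 9.17 in tumours, against 9.13, 9.52 and 9.88 in epithelial cells. It fell by 0.82 ± 0.19 with Stat3 deleted (adjusted p 0.00133), with no overlap, and by 0.77 ± 0.19 in controls (0.00227), where 1 tumour lay within the range of the epithelial cells. Endothelial genes were higher in the same tumours, averaging 7.40 to 7.96 in Stat3-deleted and 7.47 to 7.85 in control tumours, against 5.34 to 5.73 and 5.49 to 5.69 in the epithelial cells of these genotypes. Adm, the vessel-relaxing peptide adrenomedullin, differed by -0.26 ± 0.18 with Stat3 deleted (0.214) and rose by 0.47 ± 0.18 in controls (0.03).

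Collagen prolyl hydroxylases need oxygen for their reaction and are induced when it is short. P4ha1 measured 7.64, 7.97 and 8.89 (lowest, median, highest) in Stat3-deleted tumours, against 6.51, 6.63 and 6.69 in Stat3-deleted epithelial cells. In control mice it measured 7.23, 8.32 and 8.64 in tumours, against 6.74, 6.54 and 6.59 in epithelial cells. All tumours lay above all epithelial cells, by 2.77-fold with Stat3 deleted (1.47 ± 0.23, adjusted p 8.4e-05) and 3-fold in controls (1.59 ± 0.23, 3.15e-05). P4ha2 rose by 0.89 ± 0.21 (0.00194) and 1.16 ± 0.21 (0.000276). The highest P4ha1 and P4ha2 values, 8.89 and 7.66, were both in Stat3-deleted female tumour 18, where the fibroblast average was also highest, at 11.03. Fibroblasts are known to express both genes, and their part in these differences was not tested.

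Ddit4, an inhibitor of mTOR signalling that stress and low oxygen induce, measured 8.34, 8.83 and 9.26 in Stat3-deleted tumours, against 8.04, 7.77 and 7.89 in Stat3-deleted epithelial cells. In control mice it measured 8.93, 9.38 and 10.07 in tumours, against 7.21, 7.48 and 7.36 in epithelial cells. The groups did not overlap, and the rise was 1.89-fold with Stat3 deleted (0.92 ± 0.24, adjusted p 0.00368) and 4.11-fold in controls (2.04 ± 0.24, 6.23e-06). After quantile normalization the rise with Stat3 deleted was 0.62 and did not pass (adjusted p 0.073). Ndrg1, a stress-response gene of differentiated epithelium, differed by 0.44 ± 0.22 with Stat3 deleted (0.0861) and rose by 1.26 ± 0.22 in controls (0.000194).

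Mxi1, a repressor that competes with Myc for its partner, fell in both genotypes. It measured 6.90, 7.46 and 7.55 in Stat3-deleted tumours, against 8.31, 8.65 and 8.35 in Stat3-deleted epithelial cells, and 7.14, 7.42 and 7.76 in control tumours, against 8.58, 8.70 and 9.02 in control epithelial cells. No tumour reached an epithelial cell value, and the falls were 2.15-fold (-1.11 ± 0.17, adjusted p 9.86e-05) and 2.57-fold (-1.36 ± 0.17, 1.18e-05). Higd1a, a mitochondrial survival factor, fell by 0.38 ± 0.16 with Stat3 deleted (0.0463) and by 0.56 ± 0.16 in controls (0.00687). The dimmer Higd1a probe set gave -0.09 (0.581) and -0.41 (0.0234), so the fall with Stat3 deleted did not pass there. Ankrd37, a small ankyrin protein induced by hypoxia, differed by -0.39 ± 0.25 (0.176) and -0.55 ± 0.25 (0.0635), and the transcription factor Bhlhe40 by 0.28 ± 0.17 (0.162) and 0.29 ± 0.17 (0.14). The mitophagy receptor Bnip3l rose by 0.51 ± 0.14 with Stat3 deleted (0.00553) and by 0.47 ± 0.14 in controls (0.00961). RefSeq lists pseudogenes of Bnip3l and of Pgk1, so their values are uncertain where probes match both.

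Other genes of the pathways moved in both directions as well. Of 13 other glycolysis genes, 3 were higher and 4 lower in Stat3-deleted tumours, and 2 higher and 3 lower in control tumours. These were 23.1% higher and 30.8% lower with Stat3 deleted, and 15.4% and 23.1% in controls. Over all genes the shares were larger, at 30.3% and 36.2%, and 30.4% and 35.3%. The brain-type aldolase Aldoc rose by 0.93 and 1.97, and the ADP-dependent glucokinase Adpgk by 1.58 and 1.77, in Stat3-deleted and control mice. In control mice the hexokinase-domain gene Hkdc1 fell by 2.31 and the liver pyruvate kinase Pklr by 1.41. Of 28 other hypoxia-induced genes tested, 12 were higher and 3 lower in Stat3-deleted tumours, and 14 higher and 1 lower in control tumours, beside 30.3% and 30.4% of all genes higher. They include ceruloplasmin Cp (3.18 and 3.97), the lysyl hydroxylase Plod2 of collagen (3.01 and 2.69), the cytokine Mif (1.25 and 2.45) and, in control mice, the collagen cross-linker Lox (1.90). Mif, like Hsp90aa1 above, had 3 probe sets, and the values given are from the one with the highest mean. Fibroblasts make Plod2 and Lox, and fibroblast genes were higher in the same tumours. The part of fibroblasts in the differences of Plod2 and Lox was not tested.

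Glucose carriers other than Slc2a1 fell or did not pass. Of 9 sugar transporters, 0 were higher and 7 lower (77.8%) in Stat3-deleted tumours, and 0 were higher and 4 lower (44.4%) in control tumours. Over all genes 36.2% and 35.3% were lower in Stat3-deleted and control mice, and 30.3% and 30.4% higher. Slc2a2, the transporter at the base of enterocytes, fell by 2.60 in Stat3-deleted mice (adjusted p 0.000792) and by 4.33 in control mice (1.07e-05). The fructose transporter Slc2a5 fell in both, with differences of -2.13 and -3.44, as did the sodium-coupled glucose transporter Slc5a1, itself one of the enterocyte genes (-1.97 and -2.87). All 9 enterocyte genes had differences below 0 in both genotypes, and 2 passed in the Stat3-deleted and 9 in the control tumours. The part of enterocytes in these differences was not tested.

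Stat3-deleted samples were next compared with controls within each tissue, to ask whether the members depend on epithelial Stat3. Bnip3 was the single member that passed, lower in Stat3-deleted tumours with the sexes averaged. No other member passed in any comparison of genotypes, and 0 of the pathway genes did. With both sexes averaged, 1 of 31 members passed, lower, beside 0.71% of all genes, 0.289% higher and 0.422% lower. In male tumours, female tumours and epithelial cells 0 of 31 members passed, beside 0.231%, 0.104% and 0.0231% of all genes.

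**Figure D4:**
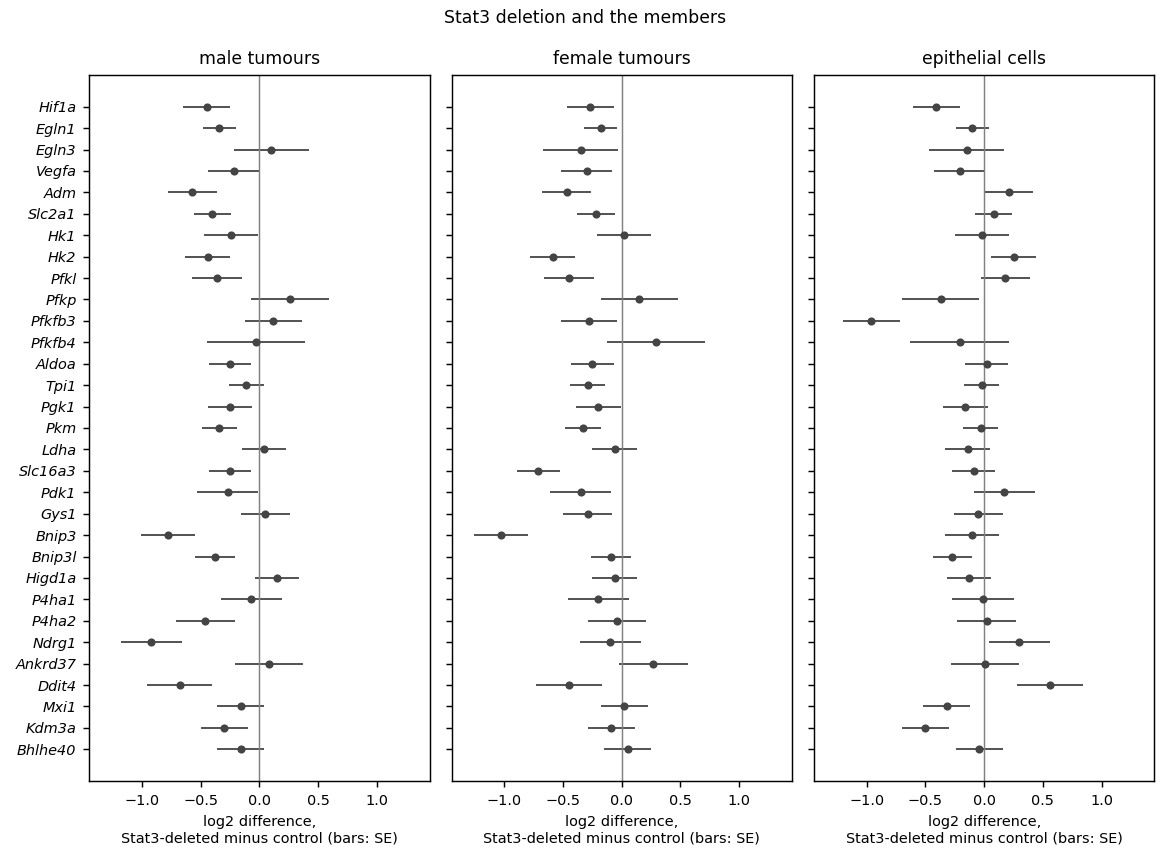
Log2 difference of Stat3-deleted minus control samples for the 31 members with its standard error, in male tumours, female tumours and epithelial cells. In tumours most points lie below 0 (24 of 31 in males, 25 of 31 in females), and none passed in any of the 3 panels on its own.

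Most members had a difference below 0 in tumours, without passing one by one. The difference was below 0 for 24 of 31 members in male tumours, 25 in female tumours and 27 with the sexes averaged. The medians were -0.25, -0.22 and -0.23, against -0.04 over all genes in each of these comparisons. At an unadjusted p under 0.05 there were 10 members in male tumours, 6 in female tumours and 11 with the sexes averaged. The share of all genes at that level is not given, here or for later counts of this kind. Such counts therefore do not show an excess. In epithelial cells 21 of 31 members were below 0, the median was -0.05 against 0.00 over all genes, and 2 members had an unadjusted p under 0.05. After quantile normalization 14 were below 0 there, with a median of 0.02, and leaving out 1 array gave 16 to 23, with 16 without Stat3-deleted replicate 4. Of the 28 other hypoxia-induced genes, 0 passed and 23 were below 0 with the sexes averaged, with a median of -0.27, while 10261 of all 17316 genes were below 0. Genes of 1 pathway vary together across the same arrays, so their counts do not stand for independent measurements. Without control tumours 9 and 15, a choice made after seeing the data, 30 of 31 members were below 0 with the sexes averaged. The members' median was then -0.29, beside -0.04 over all genes, and the count of all genes below 0 is not given there. The enterocyte average was 10.78 to 12.04 in Stat3-deleted and 8.75 to 11.61 in control tumours, and 0 of its 9 genes passed for Stat3 deletion in tumours. Of 7 neutrophil genes 1 passed, Ly6g, lower with Stat3 deleted (-2.99 ± 0.43, adjusted p 0.00193), and the 8 macrophage genes, of which 0 passed, had differences of -0.50 to -0.13. The part of cell types and of gut segment in the members' differences was not tested.

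Bnip3 is a receptor on mitochondria that starts their removal by autophagy in low oxygen. In male tumours it measured 8.44, 8.26 and 8.14 with Stat3 deleted, against 8.79, 9.11 and 9.29 in controls. In female tumours it measured 8.04, 7.95 and 8.39 with Stat3 deleted, against 9.24, 9.46 and 8.76 in controls. All 6 Stat3-deleted tumours lay below all 6 control tumours, beside 1.14% of all genes lower and 0.219% higher without overlap. The mean difference was -0.90 ± 0.16 over both sexes, a fall of 1.87-fold (adjusted p 0.0125 in limma), made up of -0.78 ± 0.23 in males (0.315) and -1.03 ± 0.23 in females (0.186). The difference between the sexes did not pass (-0.24 ± 0.33, adjusted p 1). Bnip3 passed in all 12 fits that left out 1 tumour array, with differences of -1.0 to -0.83, and without tumours 9 and 15 (-0.95, adjusted p 0.00835).

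The call rests on the brighter of its 2 probe sets. On the dimmer one the male tumours measured 7.36, 7.09 and 7.31 with Stat3 deleted, against 7.89, 7.92 and 7.92 in controls. The female tumours measured 7.34, 7.15 and 7.48 with Stat3 deleted, against 7.86, 8.44 and 7.50 in controls. The 6 Stat3-deleted tumours again lay below the 6 controls, but the difference of -0.63 ± 0.17 did not pass (adjusted p 0.0939). The mean of the probe sets gave -0.77 and passed (adjusted p 0.0271). The annotation gives both probe sets the same accessions, and it does not say whether either also measures a near-identical copy of the gene. The pair correlated at 0.90 over the 18 arrays.

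**Figure D5:**
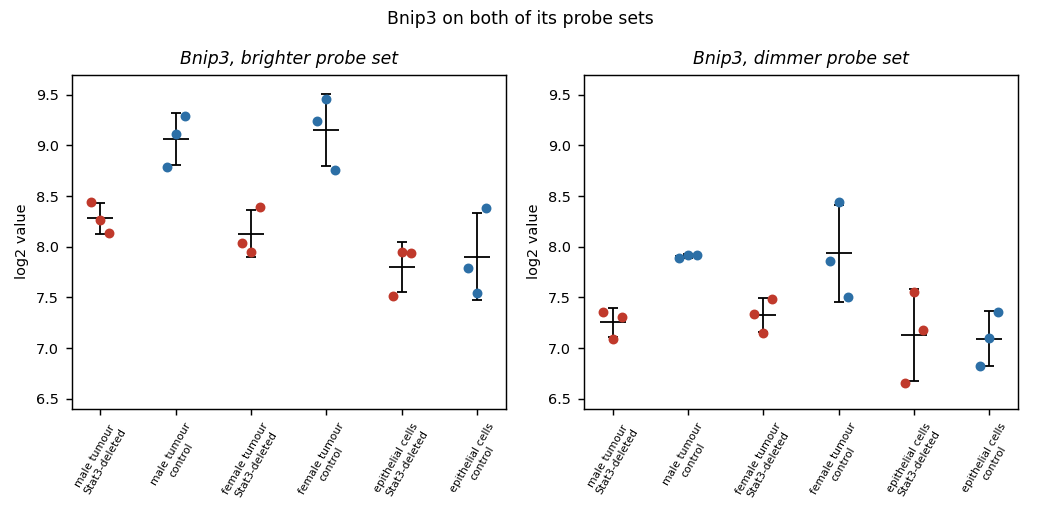
Log2 value of Bnip3 on its brighter (left) and dimmer (right) probe set by group, with points for the 3 arrays, a line for the mean and bars for 1 SD, in Stat3-deleted (red) and control (blue) samples. On both, the Stat3-deleted tumours lie below the control tumours, while the epithelial cells of the genotypes overlap.

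In epithelial cells Bnip3 measured 7.51, 7.95 and 7.94 with Stat3 deleted, against 7.79, 7.54 and 8.38 in controls, and these groups overlapped (-0.10 ± 0.23, adjusted p 0.94). Tumours differed from epithelial cells by 0.41 ± 0.20 in Stat3-deleted mice (0.0817) and rose above them by 1.21 ± 0.20, or 2.31-fold, in control mice (0.000113). With only the arrays compared the difference of 0.41 in Stat3-deleted mice passed (adjusted p 0.0395), and on the dimmer probe set the differences were 0.16 (0.492) and 0.83 (0.00241). The effect of Stat3 deletion was not shown to differ between tumours and epithelial cells, with a difference of -0.80 ± 0.28 (adjusted p 0.494).

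The members next to Bnip3 by size did not pass. With the sexes averaged, Ddit4 differed by -0.56 ± 0.20 (adjusted p 0.232), Adm by -0.52 ± 0.15 (0.122), Hk2 by -0.51 ± 0.14 (0.104), Ndrg1 by -0.51 ± 0.18 (0.238), Slc16a3 by -0.48 ± 0.13 (0.112) and Pfkl by -0.40 ± 0.15 (0.246). Slc16a3 measured 9.01, 8.98 and 9.09 in Stat3-deleted female tumours, against 10, 9.86 and 9.34 in control female tumours, without overlap (-0.71 ± 0.18, 0.412). In male tumours it measured 8.93, 9.29 and 9.11 with Stat3 deleted, against 9.59, 9.06 and 9.43 in controls, and the groups overlapped. Ndrg1 showed the reverse by sex: 9.20, 9.46 and 9.65 in Stat3-deleted male tumours, against 9.94, 10.98 and 10.14 in control male tumours (-0.92 ± 0.26, 0.273), and -0.10 ± 0.26 in females (0.997). Its difference between the sexes, 0.82 ± 0.36, did not pass (adjusted p 1).

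Single arrays weighed on these values. Of the 31 members, 8 had their highest tumour value in control male tumour 8 and 9 had their lowest in Stat3-deleted male tumour 10. In male tumours 8 members did not overlap between the genotypes, all lower with Stat3 deleted, beside 8.03% of all genes lower and 2.06% higher without overlap. In female tumours 5 members did so, all lower, beside 10.4% lower and 5.2% higher.

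In epithelial cells the widest differences went opposite ways. Pfkfb3 measured 7.40, 7.42 and 7.94 with Stat3 deleted, against 8.33, 8.53 and 8.76 in controls (-0.96 ± 0.24, adjusted p 0.548). Ddit4 measured 8.04, 7.77 and 7.89 with Stat3 deleted, against 7.21, 7.48 and 7.36 in controls (0.56 ± 0.28, 0.722). Neither gene overlapped between the genotypes, as with 7.81% of all genes lower and 6.3% higher, and neither passed. Of the 31 members, 16 had their lowest epithelial cell value in Stat3-deleted replicate 4, the sample in which the T and NK cell average reached 9.17. The part of T and NK cells in these values was not tested.

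The effect of Stat3 deletion was then set against itself across tissues and sexes. For the difference of tumours minus epithelial cells 0 of 31 members passed, beside 0.0116% of all genes, and 7 had an unadjusted p under 0.05. The largest were Ddit4 (-1.12 ± 0.34), Pfkfb3 (0.87 ± 0.29), Ndrg1 (-0.81 ± 0.31), Bnip3 (-0.80 ± 0.28) and Hk2 (-0.76 ± 0.24), with adjusted p between 0.474 and 0.503. For the difference of females minus males 0 of 31 members passed in limma, as did 0 of all genes, and 1 member had an unadjusted p under 0.05. Between male and female tumours, averaged over genotypes, 0 of 31 members passed, beside 0.0231% of all genes, and 3 had an unadjusted p under 0.05. The counts by unadjusted p have no share of all genes beside them and do not show an excess.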

How the data were processed

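Total RNA was labelled with the Affymetrix whole-transcript kit and measured on 18 arrays, 1 per sample, per the labels' protocols. The deposited values are on the log2 scale and were made by the authors with RMA, per the submitters' processing notes. RMA as usually run subtracts background, equalizes the distributions of arrays and summarizes probes, but its settings here were not stated. For its version and the array library, nothing was given in the sources used. The values ranged from 1.33 to 14.6 over 35556 probe sets, and the array medians lay between 5.88 and 6.07. No detection call was given. Precision is limited by the number of arrays. The table held 0 further columns of values.

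Of the probe sets, 21789 had 1 gene symbol in the platform annotation, 1621 had several and 12146 had none. The 999 genes with several probe sets were represented by the one with the highest mean. Of 19938 genes, the 17316 above the array's 25th percentile in at least 3 arrays were tested. In limma 3.58.1 under R 4.3.3, 1 mean per group was fitted over the 18 arrays together, with an intensity trend, and two-sided p-values were adjusted by Benjamini-Hochberg within each of 9 comparisons, with a threshold of 0.05. The fit was tested on simulated data. Replicates were grouped by title.

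The members, the 9 pathway lists, the 13 marker lists and the tests were chosen with earlier results of these data known. The naming rule took all members, Stat3, up to 4 genes that passed per pathway list and comparison by size, and up to 3 marker genes per list by level. Promoter windows came from RefSeq on GRCm38.p6. Alternatives were quantile normalization, other filters, other probe sets, no intensity trend, array weights, fewer arrays, male tumours alone and each array left out.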

Additional observations from a re-analysis of the deposited data

How the results depend on the processing

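No paired analysis was possible because the replicate numbers 1 to 18 are each used once in the series. The 44 calls of single members were followed under 28 other settings: of 819 values 769 kept their direction and side of the threshold, 50 kept their direction and lost the call, and 0 turned. Those lost most often were Kdm3a, Pfkp, Pgk1, Adm and Pfkfb3 in control mice and Higd1a in Stat3-deleted mice. With array weights, which ranged from 0.16 for control male tumour 8 to 4.87 for Stat3-deleted epithelial cell replicate 6, the members that passed for Stat3 deletion numbered 2 in epithelial cells (Hk2 and Pfkfb3), 7 in female tumours and 9 with the sexes averaged, and 4 for the difference between tissues (Bnip3, Ddit4, Hk2 and Pfkl), while all genes that passed numbered 1134, 745, 1414 and 1038, against 4, 18, 123 and 2 without weights, and the cause was not tested. Leaving out 1 array gave 18 to 20 members (25 with array weights) in Stat3-deleted tumours against epithelial cells (13 to 14 higher, 4 to 6 lower) and 18 to 24 in control mice (14 to 18 higher, 3 to 8 lower, with 3 lower without control epithelial cell replicate 3). For Stat3 deletion with the sexes averaged it gave 1 to 2 members, with Hk2 added without Stat3-deleted male tumour 11 and Slc16a3 added without control female tumour 15. The same fits gave 64 to 266 genes in all with the sexes averaged, 13 to 84 in male tumours, against 40, 10 to 30 in female tumours, 2 in epithelial cells and 1 to 10 for the difference between tissues. With only the arrays of the groups compared, 43 genes passed with the sexes averaged, 2 in male and 0 in female tumours, where fewer arrays enter the fit. Without control tumours 9 and 15, a choice made after seeing the data, 202 genes passed with the sexes averaged, 117 in male tumours and 8 for the difference between tissues. The RefSeq mRNA probe set was also an alternative added after seeing the data. Bnip3 passed with the sexes averaged under every setting run except on its dimmer probe set alone (adjusted p 0.0939), at adjusted p of up to 0.0453. Male tumours alone against epithelial cells gave 13 members higher and 5 lower in Stat3-deleted mice and 15 higher and 6 lower in control mice.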

Other observations

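Genes of mitochondrial sugar oxidation and of glucose synthesis were measured beside the members, in lists chosen with earlier results of these data known. Over all genes, 30.3% were higher and 36.2% lower in Stat3-deleted mice, and 30.4% and 35.3% in control mice. Of 15 genes of the TCA cycle, 1 was higher and 7 lower in Stat3-deleted tumours than in Stat3-deleted epithelial cells, and 0 were higher and 10 lower in control tumours, with median differences of -0.41 and -0.61 against -0.07 and -0.08 over all genes. They include Ogdh and Dlst, subunits of the oxoglutarate dehydrogenase complex, which fell in both genotypes (-0.70 and -0.73 in Stat3-deleted mice, -1.51 and -1.13 in control mice), and Sdhb, a subunit of succinate dehydrogenase (-1.01 and -1.04). Of 7 gluconeogenesis genes, 1 was higher and 4 lower in Stat3-deleted tumours, and 1 higher and 5 lower in control tumours. Pck1, which draws oxaloacetate into glucose synthesis, fell in both (-3.04 and -3.56), as did the bisphosphatase Fbp1 (-1.62 and -2.21). G6pc3, the widespread glucose phosphatase, rose by 0.46 and 0.99. Pck1 and Fbp1 are known to be abundant in enterocytes. The 9 enterocyte marker genes all had differences below 0 in both genotypes, and 2 passed in Stat3-deleted and 9 in control tumours. The part of enterocytes in the falls of Pck1 and Fbp1 was not tested.

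Of 14 genes for the transport of lactate and pyruvate and the entry of pyruvate into mitochondria, 4 were higher and 2 lower in Stat3-deleted tumours, and 1 higher and 2 lower in control tumours. Over all genes, larger shares were called: 30.3% higher and 36.2% lower in Stat3-deleted mice, and 30.4% and 35.3% in control mice. The same shares stand beside the glycogen and pentose phosphate lists. Pdp1, the phosphatase that activates pyruvate dehydrogenase, rose by 1.62 (adjusted p 6.81e-06 in limma) in Stat3-deleted mice and by 1.64 (3.77e-06) in control mice, and Pdk2, a kinase that inactivates the same enzyme, fell in both (-1.52 and -1.87). Of 10 glycogen genes tested, 4 were higher in both genotypes, and 1 lower in Stat3-deleted mice. They include the brain-type phosphorylase Pygb (1.32 and 1.77), the phosphorylase kinase subunit Phka1 (1.28 and 1.64) and the glycogen primer Gyg (1.08 and 1.20). Of 7 pentose phosphate genes, 2 were higher and 1 lower in Stat3-deleted tumours, and 1 higher and 1 lower in control tumours, with H6pd, the dehydrogenase of the endoplasmic reticulum, at 1.0 and 1.14. For Stat3 deletion with the sexes averaged 0 genes of these lists passed in limma, where 0 TCA cycle, 0 gluconeogenesis, 2 lactate and pyruvate, 1 glycogen and 1 pentose phosphate genes had an unadjusted p under 0.05. The share of all genes at that unadjusted p is not given, so these counts do not show an excess.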
